A study of Homo sapiens with 12 samples.

Results

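The genes described here are the chromatin enzymes and remodellers measured in Hs695T, an established human melanoma cell line. Members were chosen by symbol: protein-coding genes of the HDAC, SIRT, KDM, KMT, KAT, SETD, SMARC, CHD, BRD, DNMT, TET, EZH and ARID families whose array row was linked to 1 gene symbol, with the brightest row kept per gene. They came to 86 genes, read by 87 probe sets because HDAC4 had 2 of them, out of 14599 named genes of which 11733 were protein-coding. By family these were 19 KDM, 11 HDAC, 10 CHD, 8 ARID, 7 SIRT, 7 KAT, 7 SETD, 6 KMT, 4 DNMT, 3 BRD, 2 EZH and 2 TET genes. Another 33 of the 119 RefSeq protein-coding genes that match the symbols were not analysed here, among them all 13 SMARC genes and KAT6A, KMT2A, SETDB1 and TET3.

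All 12 samples were of this single cell line and were read on Affymetrix expression arrays after 24 h, with 3 arrays in each of 4 groups. The vehicle group received DMSO alone. The MAPKi group received 100 nM dabrafenib, an inhibitor of the BRAF kinase, together with 10 nM trametinib, an inhibitor of the MEK kinases. The HDACi group received 1 µM entinostat, which blocks class I histone deacetylases, and the combination group received dabrafenib, trametinib and entinostat at these doses. The comparisons ask how each treatment changed RNA levels and whether entinostat acted differently with MAPK signalling blocked. The sample titles call the replicates biological while the series text calls them technical triplicates, so p-values here measure the spread between these arrays, which may be technical.

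Histone acetyltransferases place acetyl groups on lysines, a mark of active chromatin that bromodomain proteins bind, and deacetylases of the HDAC and sirtuin families remove it. Methyltransferases and demethylases set lysine methylation, which marks active or silent chromatin according to the residue. Remodellers of the CHD and SWI/SNF groups use ATP to move nucleosomes, and DNMT and TET enzymes write and oxidise the methyl groups of DNA. In melanoma, EZH2 and SETDB1 are known for their oncogenic activity and ARID genes for recurrent loss-of-function mutations.

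Among markers of the lineage, S100B (11.49 ± 0.06, SD, n = 3, log2 intensity) and SOX10 (9.96 ± 0.16) were high in vehicle arrays. The melanocyte pigment genes MLANA (4.27 ± 0.02), TYR (3.81 ± 0.26) and TYRP1 (3.48 ± 0.28) lay near the low end of the signal range. MITF (6.09) and PMEL (6.07) were intermediate, and of other cell types CD14 (4.53) and VWF (5.08) were low while KRT18 (7.38), KRT8 (6.76) and EPCAM (5.58) gave signal. DUSP6 and SPRY4, which are induced by ERK activity, changed by -4.52 and -6.08 log2 units after MAPKi (-3.80 and -5.47 after quantile normalization). KRT18 read 5.27 ± 0.09 and S100B 9.88 ± 0.14 after MAPKi, and the part of such markers in the results below was not tested. DCT, PTPRC, CD3E, PECAM1, CDH5 and CDH1 were not analysed here. The median intensity of an array ranged from 50.6 to 57.6 in vehicle, 48.3 to 51.6 in HDACi, 37.5 to 40.8 in MAPKi and 33.3 to 39.9 in the combination. Within a group the SD of a member over its 3 arrays had a median of 0.10 to 0.14 log2 units, and precision is limited by these 3 arrays a group. Fewer cells and less RNA per cell cannot be told apart in bulk RNA. The median difference of all named genes was -0.48 after MAPKi, -0.20 after HDACi and -0.72 after the combination. For the combination it was -0.23 against MAPKi and -0.54 against HDACi. Because of this general drop, calls were asked both on the deposited scale and after quantile normalization between arrays. To be called higher or lower, a gene needed a limma Benjamini-Hochberg adjusted p under 0.05 on both, with the same sign. The adjustment ran over all named genes. Differences below are given on the deposited log2 scale as value ± SE, with the quantile-normalized difference in brackets. Values per array, their overlaps and the adjusted p-values of single genes are those of the deposited scale unless stated, so they include the general drop.

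After MAPKi, 10 of the 86 genes (11.6%) were lower and 0 were higher, beside 14.6% and 2.54% of all named genes. The 10 were DNMT1, CHD1L, EZH2, CHD1, ARID5A, HDAC7, KMT5A, KDM1A, SETD6 and KDM5C. After HDACi, 31 (36%) were lower and 7 (8.14%) higher, beside 21.3% and 9.95% of all named genes. The falls after HDACi reached all 3 bromodomain genes, 5 of 7 KAT genes and both TET genes. After the combination 31 (36%) were lower and 2 (2.33%) were higher, beside 25.5% and 3.99% of all named genes. With all named genes in 10 equal bins of brightness, 14 of the 86 lay in the brightest bin and 21 in the next, and at matching brightness the shares called lower were 21.1%, 30.5% and 34.7%, and higher 2.81%, 10.9% and 3.55%. The members' share called lower thus lay under that of matching genes after MAPKi, above it after HDACi and near it after the combination, which describes the lists and was not tested. Their median difference was -0.57 after MAPKi, -0.44 after HDACi and -1.11 after the combination, against -0.74, -0.42 and -1.19 for genes of matching brightness, or 0.12, -0.12 and -0.09 against 0.00, -0.05 and -0.04 after quantile normalization. At an unadjusted limma p under 0.05 on both scales, 1 member was higher and 13 lower after MAPKi, with no share of all named genes given for this limit. The deposited scale alone would have called 72, 55 and 79 members lower, beside 66.2%, 37.2% and 74.3% of all named genes, and the quantile scale alone 26, 17 and 24 higher, beside 14.2%, 18.2% and 21% of all named genes.

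**Figure D1:**
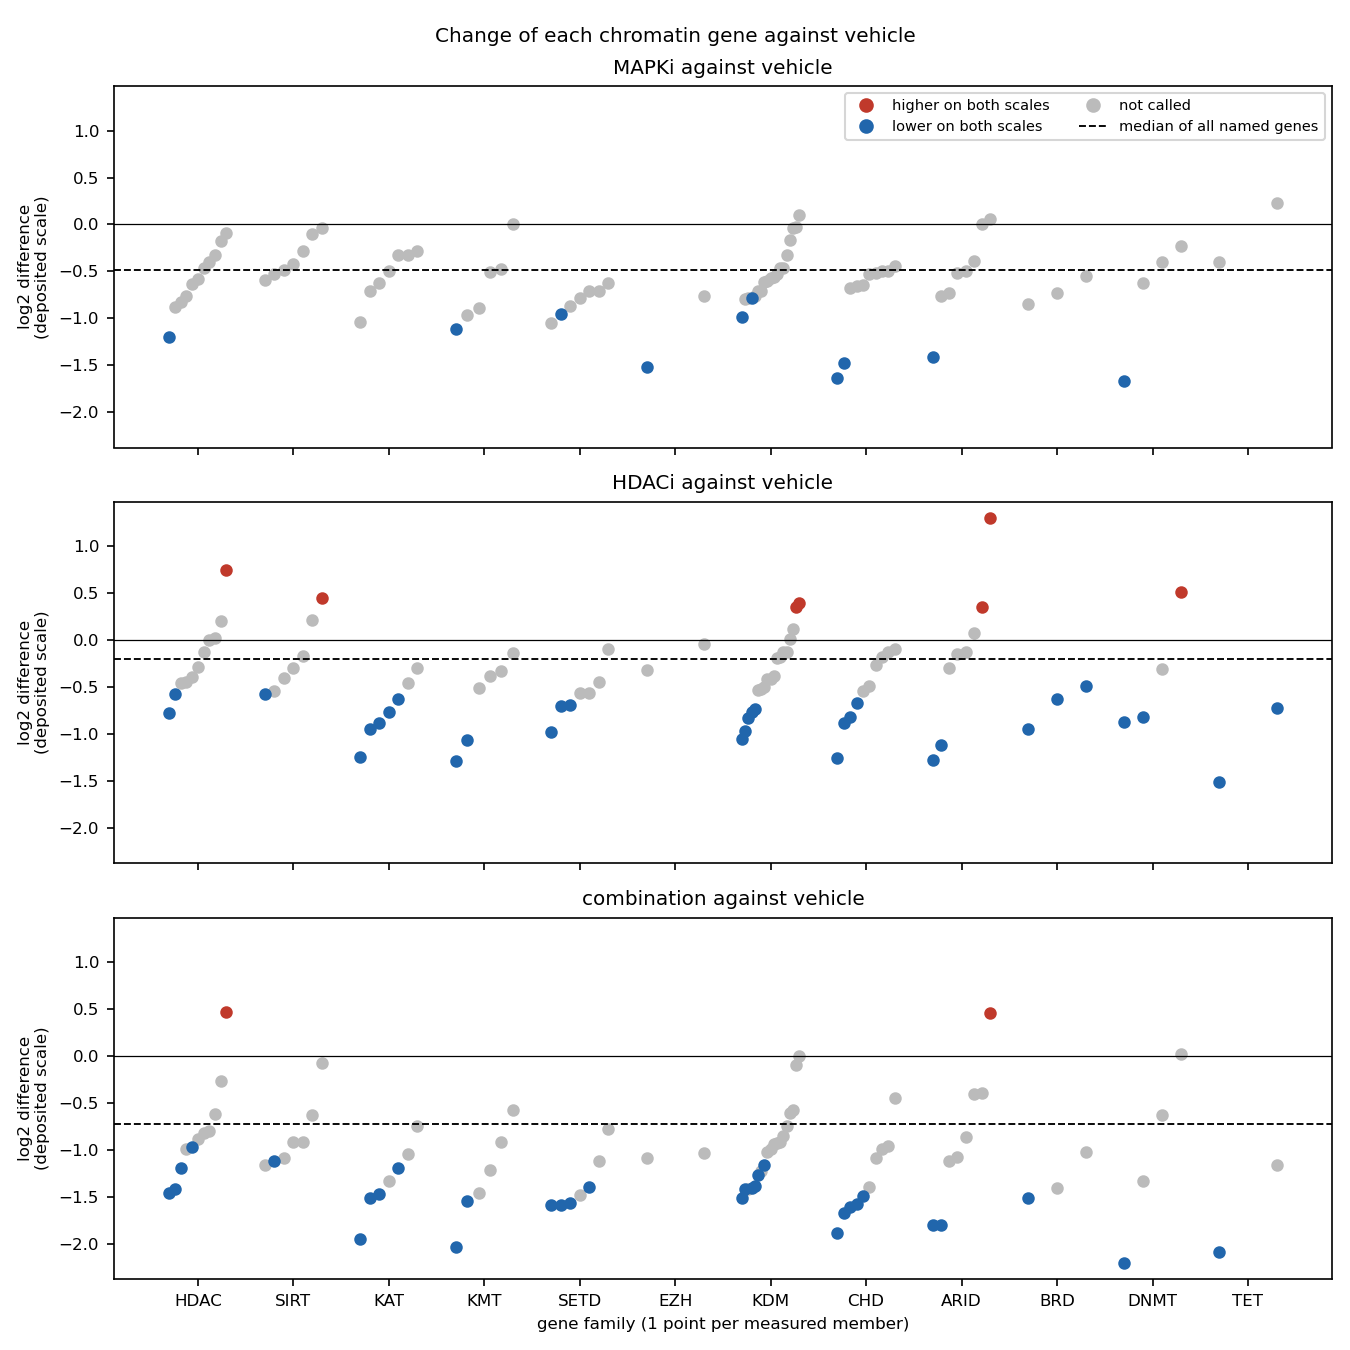
Log2 difference against vehicle on the deposited scale (vertical axis) for each measured member, 1 point per gene, grouped by family along the horizontal axis, for MAPKi, HDACi and the combination. Coloured points passed the test in the same direction on both scales and the dashed line is the median of all named genes. The panels hold 10 lower members after MAPKi, 31 lower and 7 higher after HDACi, and 31 lower and 2 higher after the combination.

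The lysine deacetylases comprised 18 genes. After MAPKi 1 was lower, after HDACi 2 were higher and 3 lower, and after the combination 1 was higher and 5 lower. Counts by family, here and below, stand beside 14.6%, 21.3% and 25.5% of all named genes lower in that order. The shares higher were 2.54%, 9.95% and 3.99%. At the brightness of the members the shares lower were 21.1%, 30.5% and 34.7%. Of the class I enzymes, 4 genes of which entinostat acts mainly on HDAC1, HDAC2 and HDAC3, none was called after MAPKi or HDACi. HDAC1, the catalytic subunit of the NuRD, SIN3 and CoREST complexes, read 9.30, 9.06 and 9.30 on the 3 vehicle arrays, 8.62, 8.64 and 8.51 after MAPKi, 9.10, 9.28 and 9.28 after HDACi and 8.33, 8.47 and 8.43 after the combination. Vehicle and HDACi arrays overlapped, and the difference was 0.00 ± 0.10 [0.39] with an adjusted p of 1. HDAC3, the enzyme of the NCoR corepressor, read 8.80, 8.58 and 8.78 in vehicle, 7.93, 7.79 and 7.80 after MAPKi, 8.48, 8.66 and 8.65 after HDACi and 7.88, 7.95 and 7.94 after the combination. Its HDACi difference of -0.12 ± 0.10 [0.28] did not pass (adjusted p = 0.35), and after MAPKi it was -0.88 ± 0.10 [-0.06]. HDAC8 was -0.28 ± 0.14 [0.02] after HDACi (adjusted p = 0.11). On the quantile scale alone HDAC1 (0.39) and HDAC3 (0.28) passed as higher after HDACi, while HDAC2 and HDAC8 did not pass. The scales thus disagreed for HDAC1 and HDAC3 after HDACi. HDAC2, the close paralog of HDAC1, fell after the combination by 1.19 ± 0.11 [-0.20]. Its adjusted limma p was 5.4e-08 on the deposited scale and 0.027 on the quantile scale. The call was lost in 3 of the fits that each left out 1 array. HDAC2 read 7.35, 7.08 and 7.14 in vehicle and from 5.86 to 6.15 after the combination, with no overlap.

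The class IIa deacetylases, which bind MEF2 transcription factors and have little catalytic activity of their own, did not move together. HDAC9 read 5.98, 5.50 and 5.47 in vehicle, 5.50, 5.50 and 5.42 after MAPKi, 6.46, 6.51 and 6.24 after HDACi and 6.03, 6.24 and 6.08 after the combination. Every entinostat-treated array lay above every array without the drug. HDAC9 rose 1.68-fold after HDACi (0.75 ± 0.13 [0.84], adjusted p = 0.00019) and rose after the combination by 0.47 ± 0.13 [1.25]. HDAC7 read 7.74, 7.25 and 7.60 in vehicle and fell to 6.41, 6.29 and 6.30 after MAPKi (-1.20 ± 0.13 [-0.49], adjusted p = 9.1e-07). It also fell after HDACi, to 6.62, 6.92 and 6.76, and after the combination, to 5.98, 6.22 and 6.01. HDAC4 fell after the combination (-1.42 ± 0.15 [-0.76]) from 6.58, 6.20 and 6.57 to between 4.78 and 5.31. HDAC5 was not called in any comparison with vehicle, with 0.21 ± 0.13 [0.55] after HDACi. Of class IIb and IV, HDAC10 fell after HDACi (-0.57 ± 0.12 [-0.37]) and after the combination (-0.97 ± 0.12 [-0.26]), while HDAC6 and HDAC11 gave no call against vehicle.

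**Figure D2:**
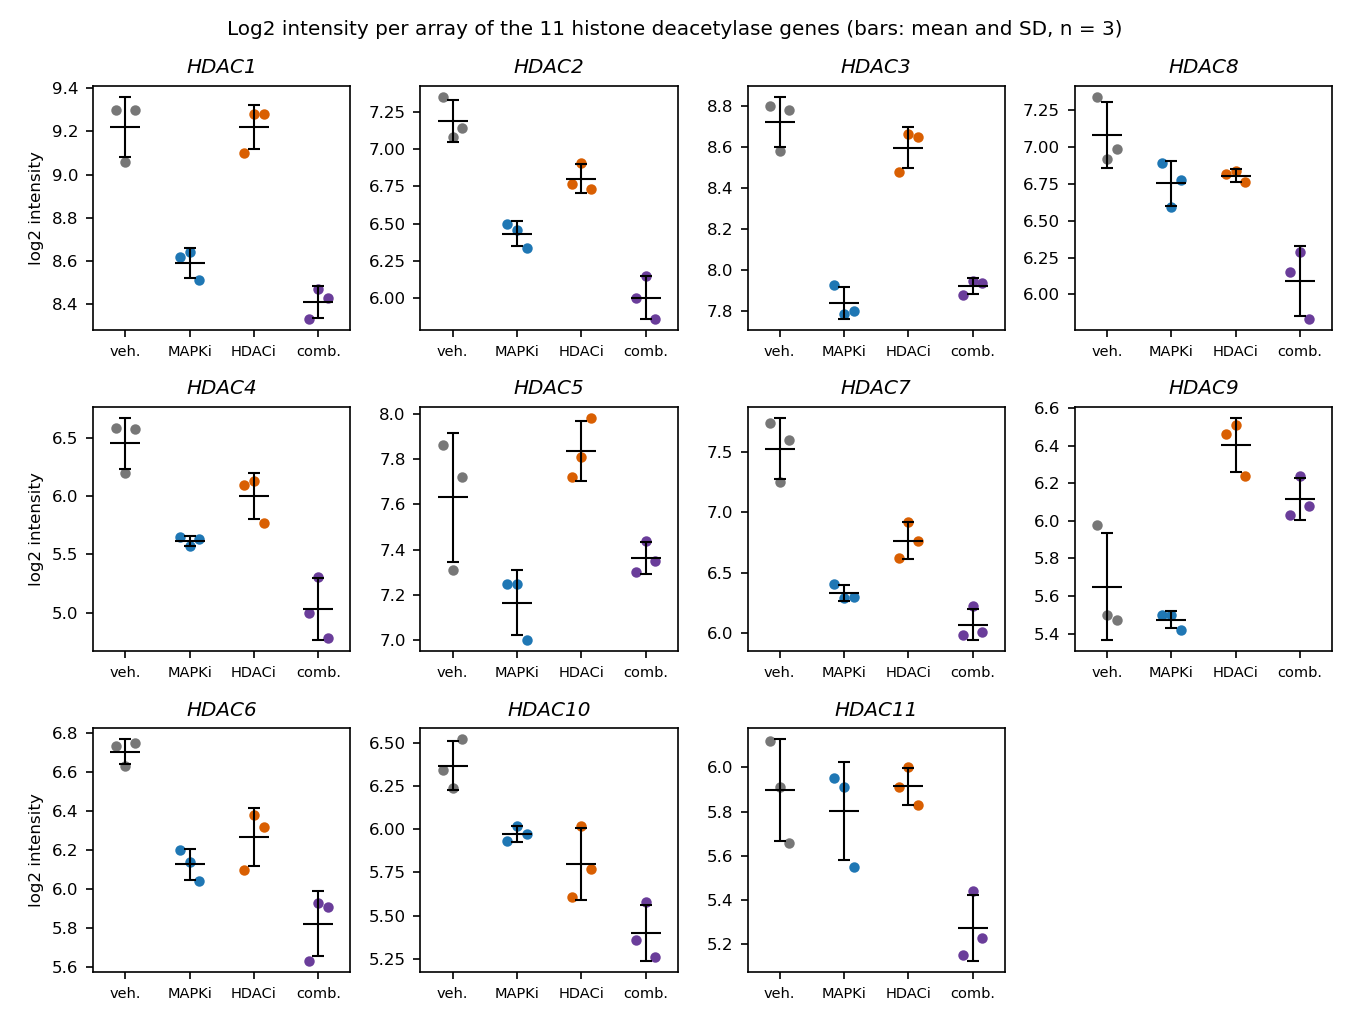
Log2 intensity of the 11 HDAC genes on each array (points) in vehicle, MAPKi, HDACi and combination cultures, with the group mean and SD (bars, n = 3); the vertical axes differ between panels and do not start at 0. HDAC9 is higher on every entinostat-treated array than on every array without the drug, and HDAC7 is lower in all 3 treated groups than in vehicle.

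Of the 7 sirtuins, the NAD-dependent deacetylases, SIRT4, a mitochondrial member, rose after HDACi from 5.23, 5.24 and 4.98 to 5.42, 5.80 and 5.58 (0.45 ± 0.13 [0.49], adjusted p = 0.0076). SIRT7, a nucleolar deacetylase, fell after HDACi by 0.57 ± 0.12 [-0.28], and mitochondrial SIRT3 fell after the combination by 1.12 ± 0.12 [-0.29]. SIRT1, the nuclear sirtuin that deacetylates p53 among other proteins, was -0.42 ± 0.13 [0.38] after MAPKi and -0.17 ± 0.13 [0.22] after HDACi and was not called.

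Of the 7 acetyltransferases 5 were lower after HDACi, beside 21.3% of all named genes and 30.5% at the brightness of the members, 4 after the combination (25.5% and 34.7%) and 0 after MAPKi (14.6% and 21.1%), with 0 higher in all 3. KAT7, the enzyme of the HBO complex that acts in replication licensing and transcription, read 8.77, 8.40 and 8.65 in vehicle, 8.04, 7.91 and 7.74 after MAPKi, 7.32, 7.42 and 7.35 after HDACi and 6.50, 6.82 and 6.63 after the combination. On the deposited scale the 4 groups did not overlap, while the quantile-normalized means were 7.98, 8.08, 7.17 and 7.25 in the same order. KAT7 fell by 1.24 ± 0.12 [-0.81] after HDACi (adjusted p = 6.3e-07) and by 1.95 ± 0.12 [-0.73] after the combination. KAT5, the enzyme of the TIP60 complex that acts in DNA repair and transcription, read 6.35, 6.15 and 6.18 in vehicle, 5.74, 6.06 and 5.88 after MAPKi, 5.15, 5.28 and 5.43 after HDACi and 5.23, 5.22 and 4.67 after the combination. It fell by 0.94 ± 0.15 [-0.76] after HDACi and by 1.19 ± 0.15 [-0.56] after the combination, and HDACi and combination arrays overlapped. KAT6B, a MYST-family enzyme, fell after HDACi from 8.64, 8.49 and 8.40 to 7.57, 7.66 and 7.66 (-0.88 ± 0.10 [-0.47]). KAT14 of the ATAC complex (-0.62 ± 0.11 [-0.21]) and KAT2A, the enzyme of SAGA and ATAC (-0.76 ± 0.13 [-0.35]), also fell after HDACi. The KAT2A call was lost when vehicle replicate 3, HDACi replicate 1 or HDACi replicate 3 was left out. KAT8 (-0.45 ± 0.11 [-0.10]) and KAT2B (-0.29 ± 0.09 [0.11]) were not called.

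Of the 15 KMT, SETD and EZH genes, grouped by symbol, 3 were lower after MAPKi (EZH2, KMT5A and SETD6). After HDACi 5 were lower (KMT2B, KMT2D, SETD1A, SETD6 and SETD7) and after the combination 6, and 0 were higher against vehicle. The shares lower were 14.6%, 21.3% and 25.5% over all named genes, and 21.1%, 30.5% and 34.7% at the brightness of the members. EZH2, the catalytic subunit of a Polycomb repressive complex that silences genes by methylating histone H3, separated the drugs. It read 9.59, 9.27 and 9.48 in vehicle, 7.88, 7.98 and 7.91 after MAPKi, 9.37, 9.47 and 9.39 after HDACi and 8.28, 8.41 and 8.38 after the combination. MAPKi arrays were the lowest of the 4 groups, HDACi arrays overlapped vehicle and combination arrays lay between. EZH2 fell 2.88-fold after MAPKi (-1.52 ± 0.10 [-0.73], adjusted p = 4.9e-09), was -0.04 ± 0.10 [0.34] after HDACi, and after the combination was -1.09 ± 0.10 [0.15] with no call. Its paralog EZH1 was not called in any comparison with vehicle (-0.76 ± 0.10 [0.06] after MAPKi).

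KMT2D, an enhancer methyltransferase of the COMPASS family, read 8.74, 8.31 and 8.61 in vehicle, 7.75, 7.70 and 7.54 after MAPKi, 7.13, 7.44 and 7.23 after HDACi and 6.52, 6.64 and 6.39 after the combination. On the deposited scale the groups stepped down without overlap in that order. The quantile-normalized means were 7.93, 7.84, 7.07 and 7.10, with MAPKi near vehicle and the combination near HDACi. It fell 2.44-fold after HDACi (-1.29 ± 0.13 [-0.86], adjusted p = 6.4e-07) and 4.10-fold after the combination (-2.03 ± 0.13 [-0.83]), and was -0.89 ± 0.13 [-0.09] after MAPKi with no call. KMT2B, a promoter methyltransferase of the same family, fell after HDACi from 8.18, 7.93 and 8.19 to 6.95, 7.08 and 7.09 (-1.06 ± 0.12 [-0.64]). KMT2C, the paralog of KMT2D, read 10.98, 10.67 and 10.81 in vehicle and 10.84, 10.82 and 10.79 after MAPKi, and was not called against vehicle. KMT5A, which adds the single methyl group to histone H4 in dividing cells, fell after MAPKi from 7.73, 7.55 and 7.61 to 6.70, 6.49 and 6.37 (-1.11 ± 0.11 [-0.39], adjusted p = 3.8e-07, or 0.0018 on the quantile scale). SETD6, which methylates non-histone proteins, read 7.34, 6.86 and 7.05 in vehicle, 6.30, 6.12 and 5.97 after MAPKi, 6.42, 6.42 and 6.34 after HDACi and 5.58, 5.47 and 5.45 after the combination. It was lower in all 3 treated groups, with differences of -0.95 ± 0.12 [-0.32], -0.69 ± 0.12 [-0.39] and -1.59 ± 0.12 [-0.75]. The MAPKi call was lost in 4 of the fits that each left out 1 array. SETD7, which methylates histone H3 and other proteins, fell after HDACi by 0.98 ± 0.11 [-0.55].

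**Figure D3:**
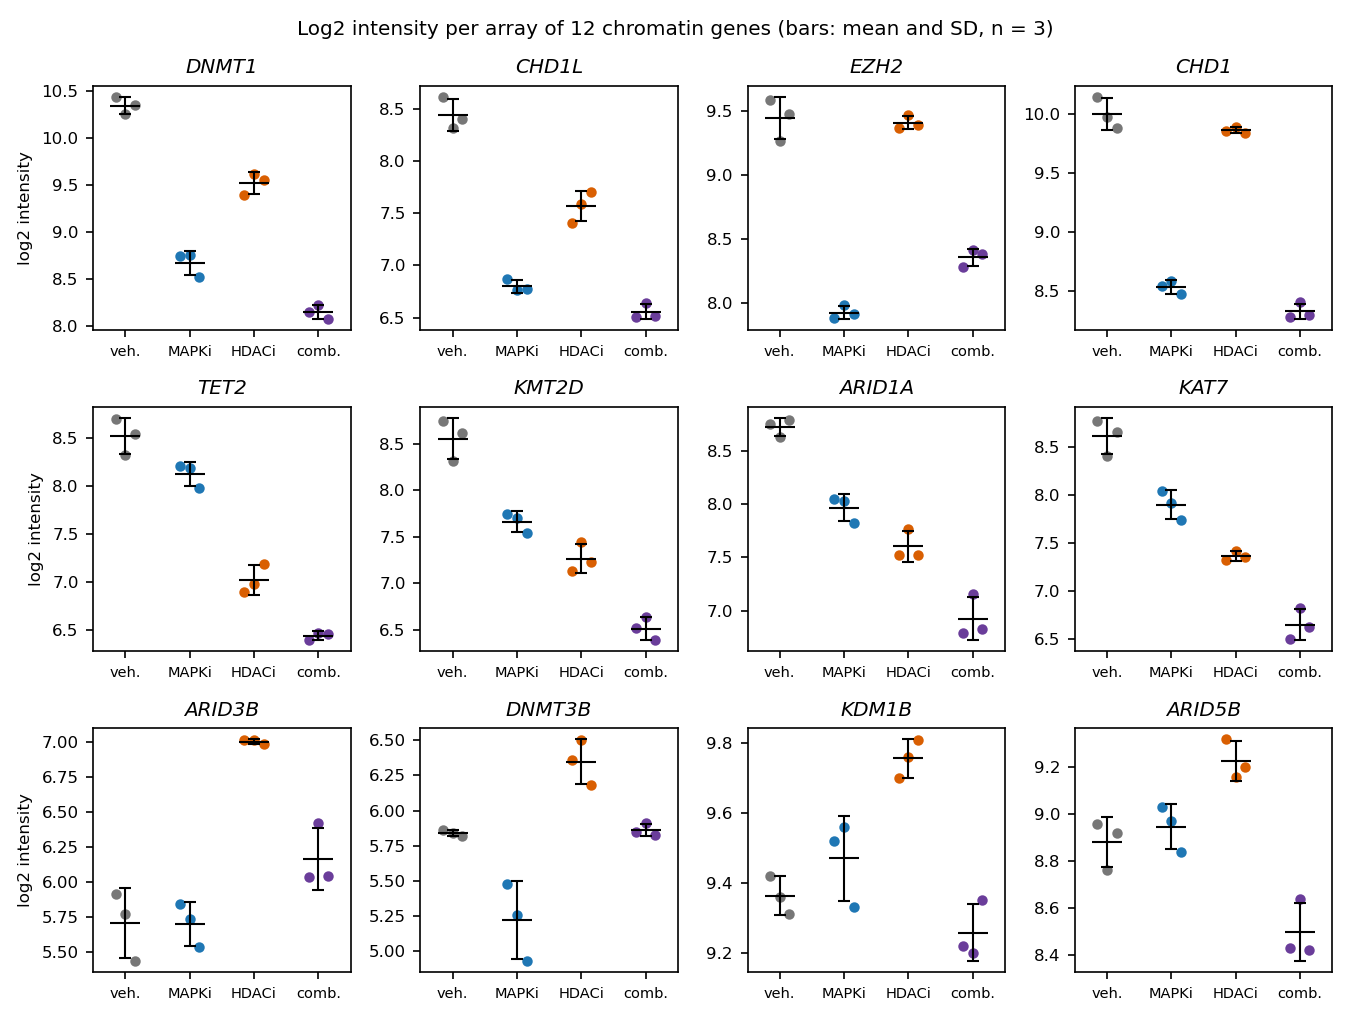
Log2 intensity of 12 members on each array (points) in vehicle, MAPKi, HDACi and combination cultures, with the group mean and SD (bars, n = 3); the vertical axes differ between panels and do not start at 0. On this deposited scale EZH2 and CHD1 are low in both groups given MAPKi. EZH2 was not called after the combination, at -1.09 [0.15]. TET2 and KAT7 are lowest in the groups given entinostat, and ARID3B is near 7.01 on the HDACi arrays against 5.43 to 5.91 in vehicle.

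Among 19 lysine demethylases 2 were lower after MAPKi, 5 lower and 2 higher after HDACi, and 6 lower after the combination. Over all named genes 14.6%, 21.3% and 25.5% were lower, and 9.95% were higher after HDACi. KDM1A, the flavin-dependent demethylase LSD1 of the CoREST complex, read 9.81, 9.62 and 9.73 in vehicle, 8.79, 8.81 and 8.63 after MAPKi, 9.60, 9.56 and 9.64 after HDACi and 8.79, 8.79 and 8.77 after the combination. MAPKi arrays lay below vehicle without overlap (-0.98 ± 0.10 [-0.19], adjusted p = 3.1e-07). The quantile scale, where the difference was smaller, decided this call, which was lost when any 1 of the 6 vehicle and MAPKi arrays was left out. KDM1B, its paralog, rose after HDACi from 9.42, 9.36 and 9.31 to 9.70, 9.76 and 9.81 (0.40 ± 0.10 [0.80], adjusted p = 0.0035). KDM7A, which removes repressive methyl marks, was higher after HDACi (0.35 ± 0.14 [0.68], adjusted p = 0.043), with arrays that overlapped those of vehicle. KDM5C, an X-linked demethylase of active-promoter marks, read 6.04, 5.98 and 6.10 in vehicle, 5.13, 5.42 and 5.23 after MAPKi, 5.29, 5.22 and 5.14 after HDACi and 4.61, 4.89 and 4.48 after the combination. It fell in all 3 treated groups, with differences of -0.78 ± 0.12 [-0.31], -0.83 ± 0.12 [-0.67] and -1.38 ± 0.12 [-0.84], and the MAPKi call was lost in 3 of the fits that each left out 1 array. KDM3B, a demethylase of a repressive mark, fell after HDACi from 10.00, 9.76 and 9.96 to 8.81, 8.95 and 8.82 (-1.05 ± 0.10 [-0.72]). KDM2B, which targets a variant Polycomb complex to CpG islands, fell by 0.97 ± 0.11 [-0.65], and KDM6B and KDM8 also fell, with -0.76 ± 0.13 [-0.35] and -0.73 ± 0.12 [-0.49].

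Of the 10 CHD remodellers 2 were lower after MAPKi, 4 after HDACi and 5 after the combination, with 0 higher. Of the 8 ARID genes, not all of which belong to remodelling complexes, 1 was lower after MAPKi, 2 were lower and 2 higher after HDACi, and 2 lower and 1 higher after the combination. Beside these counts, 14.6%, 21.3% and 25.5% of all named genes were lower and 2.54%, 9.95% and 3.99% higher. CHD1, which binds a methyl mark of active promoters, and CHD1L, a remodeller recruited to DNA damage by poly(ADP-ribose), fell with MAPKi. CHD1 read 10.14, 9.97 and 9.88 in vehicle, 8.54, 8.58 and 8.47 after MAPKi, 9.85, 9.89 and 9.84 after HDACi and 8.28, 8.40 and 8.29 after the combination. HDACi arrays lay within or just under the vehicle range, and both groups given MAPKi lay more than 1 log2 unit lower. CHD1 fell 2.77-fold after MAPKi (-1.47 ± 0.10 [-0.71], adjusted p = 4.9e-09) and was -0.13 ± 0.10 [0.23] after HDACi. CHD1L read 8.61, 8.31 and 8.40 in vehicle, 6.87, 6.76 and 6.77 after MAPKi, 7.41, 7.59 and 7.70 after HDACi and 6.51, 6.64 and 6.52 after the combination. It fell 3.12-fold after MAPKi (-1.64 ± 0.11 [-0.86]) and also after HDACi (-0.88 ± 0.11 [-0.46]). CHD3, an ATPase of the NuRD complex, read 10.37, 10.11 and 10.24 in vehicle and 8.87, 8.92 and 9.18 after HDACi, a difference of -1.25 ± 0.11 [-0.93] with no overlap. CHD4, the other NuRD ATPase, was -0.49 ± 0.10 [-0.16] and not called. CHD6 (-0.82 ± 0.11 [-0.40]) and CHD8 (-0.67 ± 0.10 [-0.26]) fell after HDACi too.

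ARID1A and ARID1B, the alternative DNA-binding subunits of the canonical SWI/SNF complex, fell together after HDACi. ARID1A read 8.75, 8.63 and 8.79 in vehicle, 8.05, 8.03 and 7.82 after MAPKi, 7.52, 7.77 and 7.52 after HDACi and 6.79, 7.16 and 6.83 after the combination. ARID1B read from 8.87 to 9.07 in vehicle, 8.31, 8.29 and 8.14 after MAPKi, 7.53, 7.86 and 7.74 after HDACi and 7.15, 7.32 and 7.07 after the combination. Every treated array of both genes lay below every vehicle array. The HDACi differences were -1.12 ± 0.12 [-0.69] and -1.27 ± 0.11 [-0.84], and after MAPKi neither gene was called (-0.76 ± 0.12 [0.06] and -0.73 ± 0.11 [0.09]). ARID3B, a DNA-binding factor outside SWI/SNF, had the largest rise of any member after HDACi. It read 5.91, 5.77 and 5.43 in vehicle, 5.84, 5.73 and 5.53 after MAPKi, 7.01, 7.01 and 6.98 after HDACi and 6.03, 6.42 and 6.04 after the combination. HDACi arrays stood above all others, at 2.45-fold of vehicle (1.30 ± 0.14 [1.38], adjusted p = 1.4e-06). ARID5B, a subunit of a PHF2 demethylase complex, rose after HDACi from 8.96, 8.76 and 8.92 to 9.32, 9.16 and 9.20 (0.35 ± 0.11 [0.73]). That call was lost without vehicle replicate 2 or HDACi replicate 1. ARID5A, an RNA-binding factor that stabilises cytokine transcripts, fell after MAPKi from 7.47, 7.13 and 7.46 to 5.97, 5.82 and 6.05 (-1.41 ± 0.11 [-0.72], adjusted p = 3.4e-08).

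All 3 bromodomain genes fell after HDACi, beside 21.3% of all named genes. BRD3, a BET protein that binds acetylated histones, changed by -0.95 ± 0.13 [-0.58], BRD7, a subunit of the PBAF form of SWI/SNF, by -0.63 ± 0.11 [-0.23] and BRD8, a subunit of the TIP60 complex, by -0.49 ± 0.11 [-0.21]. After MAPKi they lay between -0.85 and -0.55 with no call, and after the combination only BRD3 was called (-1.51 ± 0.13 [-0.44]).

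Of the 6 DNA methylation genes, 1 was lower after MAPKi, 4 were lower and 1 higher after HDACi, and 2 were lower after the combination. The shares of all named genes were 14.6%, 21.3% and 25.5% lower, and 9.95% higher after HDACi. DNMT1, which copies methylation onto new DNA strands during replication, read 10.43, 10.25 and 10.35 in vehicle, 8.74, 8.75 and 8.52 after MAPKi, 9.39, 9.62 and 9.55 after HDACi and 8.15, 8.22 and 8.07 after the combination. The 4 groups did not overlap on the deposited scale, and their quantile-normalized means were 9.79, 8.86, 9.28 and 8.80 in the same order. DNMT1 fell 3.18-fold after MAPKi (-1.67 ± 0.11 [-0.93], adjusted p = 2.6e-09), by 0.82 ± 0.11 [-0.51] after HDACi and 4.58-fold after the combination (-2.20 ± 0.11 [-0.99], adjusted p = 4.6e-11). It had the largest fall of the 86 genes both after MAPKi and after the combination. DNMT3A, a de novo methyltransferase, fell after HDACi from 7.85, 7.39 and 7.48 to 6.69, 6.85 and 6.57 (-0.87 ± 0.13 [-0.51]). DNMT3B, the other de novo methyltransferase, rose from 5.86, 5.84 and 5.82 to 6.36, 6.50 and 6.18 (0.51 ± 0.13 [0.61], adjusted p = 0.0036). DNMT3B read 5.48, 5.26 and 4.93 after MAPKi and 5.85, 5.91 and 5.83 after the combination, where it overlapped vehicle.

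TET2, which oxidises methylcytosine and has many loss-of-function mutations in blood cancers, read 8.70, 8.33 and 8.55 in vehicle, 8.21, 8.19 and 7.98 after MAPKi, 6.89, 6.98 and 7.19 after HDACi and 6.39, 6.47 and 6.46 after the combination. Arrays of both entinostat groups lay below every array without the drug. TET2 had the largest fall of the members after HDACi, 2.84-fold (-1.51 ± 0.12 [-1.07], adjusted p = 7e-08), and fell 4.25-fold after the combination (-2.09 ± 0.12 [-0.90]). TET1, its paralog, read 7.99, 7.71 and 7.75 in vehicle, 8.07, 8.03 and 8.04 after MAPKi, 7.06, 7.23 and 6.99 after HDACi and 6.69, 6.71 and 6.56 after the combination. TET1 was the member with the highest difference after MAPKi, 0.23 ± 0.11 [0.99], which did not pass on the deposited scale (adjusted p = 0.067). It fell after HDACi by 0.72 ± 0.11 [-0.33].

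Entinostat added to the MAPK inhibitors, that is the combination against MAPKi, left 37 members (43%) lower and 5 (5.81%) higher, beside 24% and 8.66% of all named genes. At matching brightness the shares were 32.8% lower and 9.6% higher. The deposited scale alone would have called 63 members lower (40.6% of all named genes) and the quantile scale alone 14 higher (19.6% of all named genes). By role 8 of 18 deacetylases, 4 of 7 acetyltransferases, 6 of 15 methyltransferases, 8 of 19 demethylases, 6 of 18 CHD and ARID genes, 2 of 3 bromodomain genes and 3 of 6 DNA methylation genes fell. TET2 fell 3.21-fold (-1.68 ± 0.12 [-1.30], adjusted p = 2.8e-08), followed by TET1 (-1.39 ± 0.11 [-0.98]), KAT7 (-1.24 ± 0.12 [-0.83]) and KAT6B (-1.19 ± 0.10 [-0.72]). KMT2D (-1.14 ± 0.13 [-0.74]), CHD6 (-1.12 ± 0.11 [-0.68]), DNMT3A (-1.10 ± 0.13 [-0.74]) and ARID1B (-1.07 ± 0.11 [-0.60]) fell as well. The 5 that rose were HDAC9 (0.64 ± 0.13 [1.00]), DNMT3B (0.64 ± 0.13 [0.93]), ARID3B (0.46 ± 0.14 [0.83]), EZH2 (0.43 ± 0.10 [0.88]) and ARID5A (0.28 ± 0.11 [0.66]). EZH2 was thus 1.35-fold higher with entinostat present (adjusted p = 0.0023), and its combination arrays still lay below every vehicle array on the deposited scale. The ARID5A call, with an adjusted p of 0.048, was lost in 9 of the 12 fits that each left out 1 array, and that of ARID3B without MAPKi replicate 3 or combination replicate 2. Without combination replicate 2, 3 members were higher.

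The MAPK inhibitors added to entinostat, that is the combination against HDACi, left 5 members (5.81%) lower and 0 higher, beside 12.5% and 0.582% of all named genes and 18% and 0.478% at matching brightness. CHD1 fell 2.91-fold (-1.54 ± 0.10 [-0.69], adjusted p = 7.9e-09) and DNMT1 fell 2.60-fold (-1.38 ± 0.11 [-0.48]). The others were HDAC4 (-0.97 ± 0.15 [-0.52]), SETD6 (-0.90 ± 0.12 [-0.36]) and SIRT5, a mitochondrial enzyme that removes succinyl and related groups (-0.85 ± 0.11 [-0.30]). The SETD6 call was lost in 3 of the fits that each left out 1 array. At an unadjusted limma p under 0.05 on both scales, 0 members were higher and 11 lower, with no share of all named genes given for this limit. On the quantile scale alone 14 members would have been higher, beside 10.5% of all named genes, and on the deposited scale alone 82 lower, beside 72.6%. The comparisons against vehicle share its 3 arrays, and those of the combination share its 3 arrays, so their values are given side by side and not counted as separate evidence.

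The entinostat response differed with MAPK inhibition for 7 members by a direct test, the interaction, defined as combination minus MAPKi less HDACi minus vehicle. The interaction was negative for 6 (6.98%) and positive for 1 (1.16%), beside 4.26% and 3.02% of all named genes, and 6.45% and 4.63% at matching brightness. ARID3B rose by 1.30 with entinostat alone and by 0.46 on top of MAPKi, an interaction of -0.84 ± 0.20 [-0.55] (adjusted p = 0.013). ARID5B rose by 0.35 alone and was -0.45 [-0.04] on top of MAPKi, where it read 9.03, 8.97 and 8.84 without and 8.43, 8.64 and 8.42 with entinostat (-0.80 ± 0.15 [-0.77], adjusted p = 0.0026). KDM1B rose by 0.40 alone and was -0.21 [0.15] on top of MAPKi, from 9.52, 9.56 and 9.33 to 9.22, 9.20 and 9.35 (-0.60 ± 0.14 [-0.64]). Neither ARID5B nor KDM1B was called when entinostat was added to MAPKi. TET1 changed by -0.72 alone and by -1.39 on top of MAPKi (-0.67 ± 0.15 [-0.64]). KDM4C, a demethylase of repressive marks, was -0.38 alone and fell by 0.95 on top of MAPKi (-0.57 ± 0.15 [-0.54]), and SIRT5, at 0.22 [0.37] alone and -0.35 [-0.14] on top of MAPKi, had an interaction of -0.57 ± 0.15 [-0.51]. CHD1L went the other way: it fell by 0.88 alone and was -0.24 on top of MAPKi, after MAPKi had already taken it to 6.87, 6.76 and 6.77 (0.63 ± 0.16 [0.64], adjusted p = 0.018). ARID5B, TET1 and KDM1B passed in every fit that left out 1 array. The count of negative interactions fell to 3 without vehicle replicate 3, MAPKi replicate 1 or 2, HDACi replicate 1, or combination replicate 1 or 3. CHD1L was lost without HDACi replicate 1, and without vehicle replicate 2 or HDACi replicate 2 the positive count was 4 or 2.

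**Figure D4:**
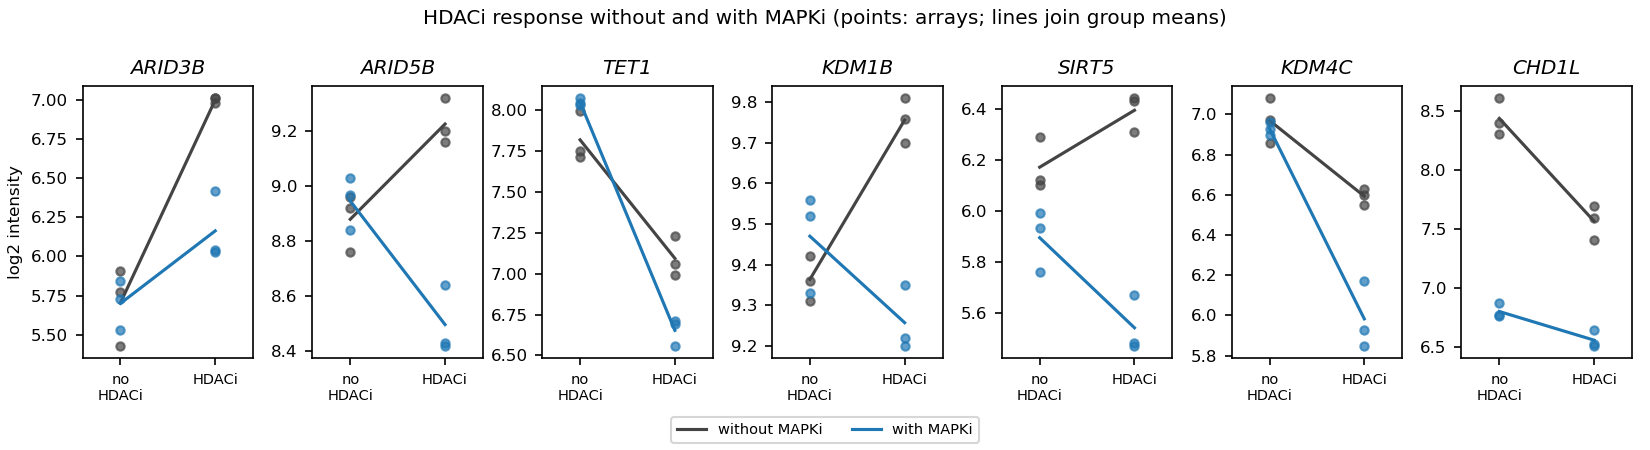
Log2 intensity on each array (points) of the 7 members whose interaction passed the test, without and with entinostat (horizontal axis), in cultures without MAPKi (grey) and with MAPKi (blue). Lines join group means (n = 3), and the vertical axes differ between panels and do not start at 0. The slopes differ within each panel, by -0.84 for ARID3B and by 0.63 for CHD1L.

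The log2 difference between close paralogs on the same array is not moved by a scaling of the whole array. It was compared over the 4 groups with an exact permutation test of the F statistic, over 369600 divisions of the 12 arrays and with p adjusted over the 11 pairs measured of 18 listed. In 10 of the 11 pairs the difference varied between groups, the exception being ARID1A minus ARID1B. Pairs of other genes were not tested, so this count has no reference share and describes these pairs only. Differences between probe sets have no meaning as levels, so only their changes against vehicle are given, with the quantile-normalized change in brackets. A shift that depends on brightness can still move them.

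EZH2 minus EZH1 changed by -0.77 [-0.79] after MAPKi, 0.28 [0.26] after HDACi and -0.07 [-0.12] after the combination (exact permutation p = 0.00013, adjusted 0.00029). Combination arrays overlapped vehicle and the single treatments lay apart from it on opposite sides. KDM1A minus KDM1B changed by -1.08 [-1.10], -0.52 [-0.55] and -0.84 [-0.82] in the same order, a drop in all 3 treated groups with no overlap (exact permutation p = 6.5e-05, the smallest the design can give, adjusted 0.00024). KMT2D minus KMT2C changed by -0.89 [-0.81], -1.15 [-1.05] and -1.46 [-1.25], again without overlap (exact permutation p = 6.5e-05, adjusted 0.00024). HDAC4 minus HDAC9 changed by -0.65 [-0.54], -1.20 [-1.09] and -1.88 [-2.01], the widest change of any pair (exact permutation p = 6.5e-05, adjusted 0.00024). HDAC5 minus HDAC7 moved the other way, by 0.73 [0.76], 0.97 [0.96] and 1.19 [1.37] (exact permutation p = 0.00026, adjusted 0.00048). In both of these class IIa pairs the arrays of all 3 treated groups lay apart from those of vehicle.

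DNMT3B minus DNMT3A changed by 1.38 [1.12] after HDACi and 1.35 [1.00] after the combination, while MAPKi arrays (-0.39 [-0.67]) overlapped vehicle (exact permutation p = 0.0019, adjusted 0.0023). CHD4 minus CHD3, the NuRD ATPases, changed by -0.15 [-0.13], 0.76 [0.77] and 0.59 [0.55] (exact permutation p = 0.00032, adjusted 0.00051). Both entinostat groups thus lay above vehicle and MAPKi just below it. KAT2A minus KAT2B was lower in all 3 treated groups, by -0.72 [-0.71], -0.47 [-0.46] and -0.59 [-0.57] (exact permutation p = 0.00071, adjusted 0.00098). KDM6A minus KDM6B, the demethylases that oppose EZH2, changed by -0.38 [-0.48], 0.57 [0.50] and 0.18 [0.01] (exact permutation p = 0.00013, adjusted 0.00029), with combination arrays overlapping vehicle. HDAC1 minus HDAC2 changed by 0.13 [0.28], 0.39 [0.46] and 0.37 [0.65] (exact permutation p = 0.0065, adjusted 0.0071). ARID1A minus ARID1B changed by -0.03 [-0.03], 0.15 [0.15] and 0.00 [-0.02], with every treated group overlapping vehicle (exact permutation p = 0.088, adjusted 0.088). Without HDACi replicate 3 the raw p for this pair was 0.036.

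**Figure D5:**
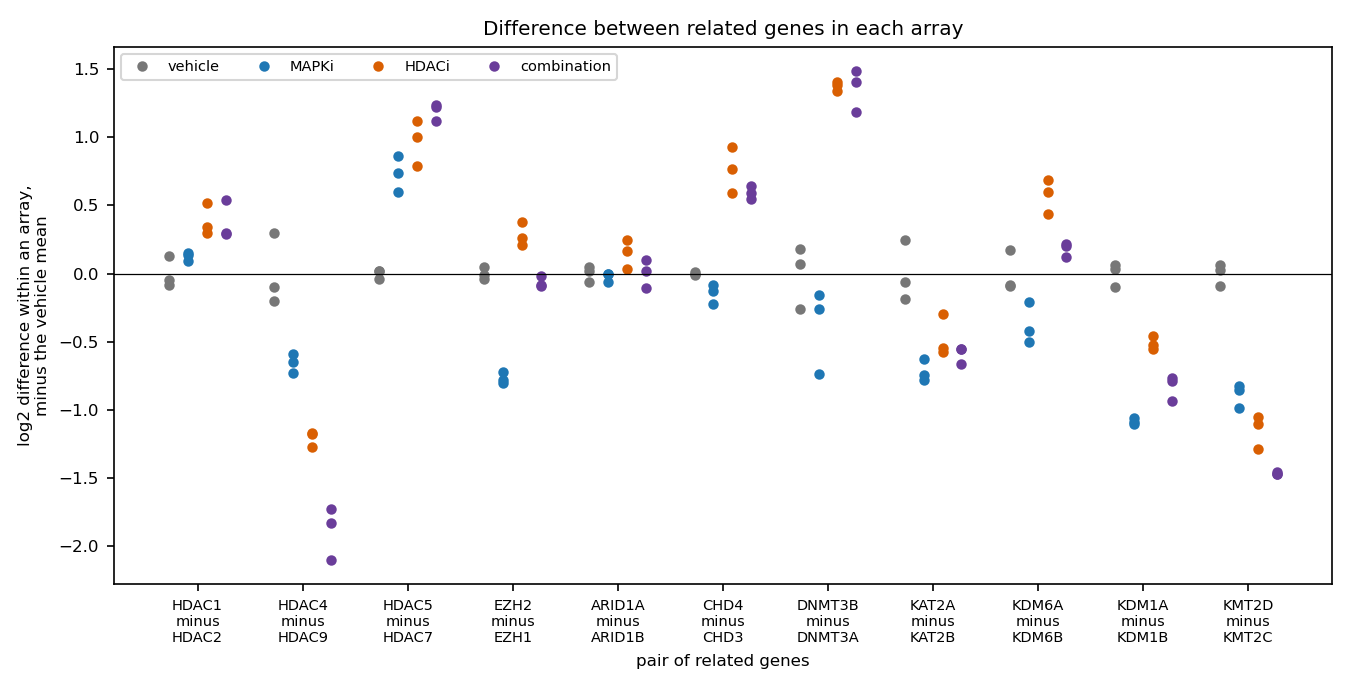
Log2 difference between the members of each pair on each array, minus the vehicle mean of that difference (vertical axis), for the 11 measured pairs (horizontal axis), with 3 arrays per group in colour. EZH2 minus EZH1 falls to -0.77 after MAPKi and rises to 0.28 after HDACi, HDAC4 minus HDAC9 reaches -1.88 in the combination, and ARID1A minus ARID1B stays near 0.

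Promoters are printed for 6 members that fell and hold a searched motif, to show the sequence beside the change. They are the RefSeq sequences of build GRCh38.p14, from 140 bases before the annotated gene start to 10 after it, written 5′ to 3′ along the gene's strand. Capitals mark the letters TTTGGCGC (an E2F site), CCGGAAGT (an ETS site) or CACGTG (an E-box, read alike on both strands), and TTTGAA (the cell-cycle CHR element) or its reverse complement TTCAAA.
EZH2, chr7:148884282-148884431, minus strand: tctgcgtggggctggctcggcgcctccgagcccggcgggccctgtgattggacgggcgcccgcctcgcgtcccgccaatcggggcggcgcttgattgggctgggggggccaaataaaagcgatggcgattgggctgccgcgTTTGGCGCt
SETD6, chr16:58515377-58515526, plus strand: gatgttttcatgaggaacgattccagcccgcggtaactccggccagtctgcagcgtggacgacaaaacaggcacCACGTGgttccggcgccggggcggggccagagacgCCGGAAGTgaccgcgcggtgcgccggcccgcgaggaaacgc
KAT5, chr11:65712112-65712261, plus strand: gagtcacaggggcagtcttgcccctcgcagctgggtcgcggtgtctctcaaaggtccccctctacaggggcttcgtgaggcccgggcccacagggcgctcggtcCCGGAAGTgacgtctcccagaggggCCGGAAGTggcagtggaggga
KAT7, chr17:49788541-49788690, plus strand: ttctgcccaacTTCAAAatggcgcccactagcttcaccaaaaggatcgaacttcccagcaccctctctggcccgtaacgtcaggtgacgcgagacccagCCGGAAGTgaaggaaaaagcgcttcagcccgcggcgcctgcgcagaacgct
TET2, chr4:105145735-105145884, plus strand: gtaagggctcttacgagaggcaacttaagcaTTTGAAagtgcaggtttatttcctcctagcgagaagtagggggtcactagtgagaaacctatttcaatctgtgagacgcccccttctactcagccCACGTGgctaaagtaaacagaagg
KMT2D, chr12:49060785-49060934, minus strand: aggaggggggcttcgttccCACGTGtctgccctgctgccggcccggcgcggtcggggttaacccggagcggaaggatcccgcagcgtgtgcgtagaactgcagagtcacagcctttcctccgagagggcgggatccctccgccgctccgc
The E2F letters of EZH2 begin 2 bases after the start. SETD6 holds an E-box and an ETS match, KAT5 holds a pair of ETS matches, KAT7 holds 1 with CHR letters, TET2 holds an E-box and CHR letters, and KMT2D holds an E-box. A match is a description of letters and not a site shown to be bound.

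Over the whole 300-base window of the table, from 250 bases before to 50 after the start and on both strands, 76 of the 86 members matched a promoter. The 10 without an entry were ARID3A, ARID3B, CHD5, CHD6, CHD7, DNMT3L, HDAC5, KAT8, KDM4E and SIRT7. The E2F letters TTTCCCGC or TTTGGCGC occurred in 4 members (5.26%) and in 3.2% of 9562 promoters of named protein-coding genes. The ETS letters CCGGAAGT occurred in 5 (6.58%) and 6.93%, and the E-box in 9 (11.8%) and 9.11%. The CHR letters occurred in 7 (9.21%) and 11.4%, and the palindromic NRF1 element in 2 (2.63%) and 1.99%. Of the 10 members lower after MAPKi, EZH2 held E2F letters and SETD6 held ETS and E-box letters, and 0 held CHR or NRF1 letters. Of the 29 members lower after HDACi that have a promoter, 3 held ETS letters (10.3%, KAT5, KAT7 and SETD6), 4 an E-box (13.8%, KAT5, KMT2D, SETD6 and TET2), 3 CHR letters (10.3%, KAT14, KAT7 and TET2), 1 E2F letters (3.45%, BRD7) and 0 the NRF1 element. Of the 30 lower after the combination that have a promoter, 4 held ETS letters (13.3%), 5 an E-box (16.7%), 5 CHR letters (16.7%) and 0 E2F or NRF1 letters.

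Partners of these enzymes were read from 6 lists, and their counts of falls stand beside 14.6% of all named genes lower after MAPKi, 21.3% after HDACi and 25.5% after the combination. Shares and medians at the brightness of these lists were not computed, so the part of brightness in their falls was not tested. Of 17 measured Polycomb partners, of 23 listed, 7 fell after MAPKi, 9 after HDACi and 11 after the combination, with 0 higher. PHF19, which brings the Polycomb methyltransferase to chromatin, changed by -2.22 ± 0.12 [-1.43], -2.64 ± 0.12 [-2.20] and -3.26 ± 0.12 [-2.19]. PHC2, a subunit of the other Polycomb complex, fell after MAPKi by 2.24 ± 0.11 [-1.46]. The list's median differences were -0.96 [-0.17], -0.61 [-0.20] and -1.51 [-0.33], against -0.48 [0.00], -0.20 [-0.04] and -0.72 [-0.04] over all named genes. Of 18 measured deacetylase complex partners, of 31 listed, 4, 5 and 5 fell in the same order and 0, 1 and 1 rose, and SIN3A, the scaffold of the SIN3 complex, changed by -1.27 ± 0.11 [-0.91] after HDACi and -2.58 ± 0.11 [-1.34] after the combination. Of 8 other acetyltransferases, of 12 listed, 2, 4 and 5 fell and 1, 0 and 0 rose, and CREBBP (-0.96 ± 0.10 [-0.68]) and EP300 (-0.86 ± 0.11 [-0.54]), the paralogous coactivators, both fell after HDACi.

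Of 21 measured histone methyltransferases outside the chosen families, of 24 listed, 8 fell after MAPKi, 17 after HDACi and 17 after the combination, with 0 higher and medians of -0.88 [-0.16], -0.78 [-0.43] and -1.61 [-0.63]. NSD1, which methylates histone H3 in gene bodies, changed by -1.54 ± 0.10 [-1.11] after HDACi, SMYD2 by -1.61 ± 0.10 [-0.82] after MAPKi, and SUV39H2, a heterochromatin enzyme, by -2.48 ± 0.11 [-1.72] after the combination. Of 20 other remodelling subunits, of 30 listed, 4, 11 and 11 fell, among them INO80D after HDACi (-1.67 ± 0.13 [-1.26]), a subunit of the INO80 remodeller, with 1 higher after HDACi. Of 11 partners of DNA methylation and histone chaperones, of 15 listed, 7, 7 and 8 fell. UHRF1, which guides DNMT1 to newly replicated DNA, changed by -2.28 ± 0.12 [-1.51] after MAPKi and -2.59 ± 0.12 [-1.50] after the combination. ASF1B, a histone chaperone of dividing cells, fell by 2.52 ± 0.11 [-1.73] after MAPKi and was not called after the combination. With entinostat added to MAPKi, ASF1B rose by 1.32 ± 0.11 [1.83], while 4 others of this list fell. These lists were chosen with earlier results of these data known, and their counts describe the lists only.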

How the data were processed

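The deposited table held linear intensity values for 29592 probe set rows on 12 Affymetrix arrays, which the authors made with RMA in the Transcriptome Analysis Console, per the submitters' processing notes. No source used here gives the genome build, the array annotation or whether the added ERCC spike-in RNA entered the scaling. GEO's platform annotation linked 14783 rows to 1 gene symbol, 0 to several and 14809 to none. All 14783 matched a symbol of the RefSeq gene table (GRCh38.p14). The brightest row was kept for each of the 14599 genes, 169 of which had more than 1.

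Values were taken to log2 and fitted with limma 3.58.1 in R 4.3.3 on all 12 arrays, 1 mean per group, with Benjamini-Hochberg adjustment over all named genes for each of 6 comparisons. The fit was repeated after quantile normalization of all rows, and a call needed an adjusted p under 0.05 with the same sign on both. Paralog pairs were tested with exact permutations. No detection calls were used, so a dim gene's difference may be understated.

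The members, gene lists, pairs and call rule were chosen with earlier results of these data known. Members named with values per array were up to 10 of the largest rises and falls per comparison whose arrays did not overlap, 12 fixed genes and the pairs; SMARCA4 of the fixed genes was not analysed here. Members outside these were named with their family. Up to 4 called genes per list and comparison were eligible among partners. The replicate numbers of the titles were not used to pair the samples in the main fit. Alternatives were each scale alone, median centring, a filter on the dimmest 40% of genes, a trended robust fit, averaging probe sets per gene, only the groups compared, a replicate block, and leaving out each array.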

Additional observations from a re-analysis of the deposited data

Results flagged for a closer look

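The entinostat response with MAPK inhibition differed from that without it, by the interaction test in limma, for 7 members. Negative interactions made up 6.98% of members and positive ones 1.16%. Over all named genes the shares were 4.26% and 3.02%, and at matching brightness 6.45% and 4.63%. The interaction was -0.84 for ARID3B, -0.80 for ARID5B, -0.67 for TET1, -0.60 for KDM1B, -0.57 for SIRT5 and -0.57 for KDM4C, and 0.63 for CHD1L, in log2 units. ARID5B, TET1 and KDM1B passed whichever array was left out, and ARID3B was lost in 6 of the 12 fits that each left out 1 array.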

How the results depend on the processing

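The 12 counts of called members were recomputed under each alternative, except the 2 interaction counts with only the groups compared, since the interaction uses all groups. The 11 pair tests were recomputed on the quantile scale, with the mean of the probe sets and without each array. On the quantile scale alone the members called higher numbered 26 after MAPKi, 17 after HDACi, 24 after the combination, 14 for the combination against MAPKi, 14 for the combination against HDACi and 6 for the interaction. On the deposited scale alone those called lower numbered 72, 55, 79, 63 and 82 for the first 5 of these. With median centring alone, 12 were higher and 33 lower after MAPKi, 49 lower after HDACi, 7 higher and 66 lower after the combination, 56 lower for the combination against MAPKi, 1 higher and 36 lower for the combination against HDACi, and 5 had a positive interaction. Without the dimmest 40% of genes, 1 was higher after MAPKi, 8 were lower for the combination against HDACi and 4 had a positive interaction, as 4 did with the trended robust fit. For median centring, the filter on dim genes and the trended robust fit, shares of all named genes are not given. The same holds for the replicate block and for leaving out each array, so all these counts describe the members only. The cause of these shifts between scales was not tested.

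Genes without a call changed sign with the scale. On the quantile scale alone, the MAPKi differences were HDAC8 0.32, SIRT1 0.38, HDAC5 0.27, DNMT3A 0.50, KAT2B 0.48, KDM6B 0.63 and KMT2C 0.72, and the HDACi differences HDAC3 0.28, EZH2 0.34 and KDM1A 0.24. After the combination they were HDAC1 0.45, HDAC3 0.49, KDM1A 0.24, SIRT1 0.36, HDAC5 0.96, EZH1 0.27, KAT2B 0.55, KDM6A 0.25, KDM1B 1.06 and KMT2C 0.42. With median centring they were HDAC9 0.26, KDM6B 0.28 and KMT2C 0.44 after MAPKi, and HDAC5 0.30 and KDM1B 0.46 after the combination.

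With the replicate block, 0 members were higher and 10 lower after MAPKi, 7 and 32 after HDACi, 2 and 30 after the combination, 4 and 37 for the combination against MAPKi, 0 and 5 for the combination against HDACi, and 1 and 6 for the interaction. KDM1A after MAPKi and ARID5A for the combination against MAPKi were lost among the named genes. Deviations of same-numbered arrays correlated with a median r of 0.0324 (-0.106 to 0.121), and for 9 of 12 arrays the highest mean r was with the same number, a hint from the data only. With only the groups compared, KDM1A and KDM5C after MAPKi, HDAC2 after the combination, ARID5A against MAPKi and SETD6 against HDACi lost their calls, and the trended fit lost KDM5C after MAPKi.

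Leaving out each array in turn gave, for members higher and lower, 0 to 1 and 7 to 11 after MAPKi, 5 to 7 and 26 to 32 after HDACi, 2 and 25 to 31 after the combination, 3 to 5 and 32 to 36 for the combination against MAPKi, 0 and 4 to 6 for the combination against HDACi, and 0 to 4 and 3 to 8 for the interaction. Without vehicle replicate 1, 1 member was higher after MAPKi. The exact permutation p of ARID1A minus ARID1B ran from 0.036 to 0.34. The other 10 pairs stayed under 0.05 in each of these fits.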
